A study of Mus musculus with 9 samples.

Results

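The nuclear receptors are a family of transcription factors, and 32 of them were followed in the mouse central nervous system at 3 stages. The 32 genes were chosen by name as members of the family, with no threshold on their values, and all 32 were found among the 45706 gene identifiers of the deposited count table. They cover the steroid receptors, the estrogen-related receptors, the retinoid receptors, the lipid-sensing and vitamin D receptors, the ROR and Rev-erb receptors, the Nr2 orphan receptors, and the smaller Nr4a, Nr5, Nr6 and Nr0b groups. The low-count filter passed 31 of them. The exception was Esr2 (estrogen receptor beta), which had between 3 and 10 reads in each library and was not tested.

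The libraries were bulk RNA sequencing of whole tissue from untreated C57BL6/J mice, with 3 libraries each from embryos at E9.5 and E14.5 (E for embryonic day) and from adults at postnatal day 60 (P60). E9.5 tissue was the embryonic head with surplus tissue outside the neuroectoderm trimmed away, E14.5 tissue was brain freed of meninges, and P60 tissue was adult central nervous system taken after perfusion with saline. The labels do not say whether a library came from 1 animal or from a pool, so the p-values measure the spread between these libraries. The tissue dissected differed between the stages, and its part in a change cannot be told apart from that of age. Levels are CPM, the reads of a gene as a share of its library's reads, with library totals scaled by TMM. In bulk tissue, fewer cells of a type and less RNA per cell cannot be told apart.

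Nuclear receptors share a DNA-binding domain of zinc fingers and, in most members, a ligand-binding domain that switches between corepressor and coactivator complexes. Steroid receptors are held ready by heat shock chaperones and bind DNA mostly as pairs of themselves, while retinoic acid, vitamin D, PPAR and LXR receptors pair with a retinoid X receptor. The orphan receptors, for which no hormone was known when they were named, include factors of neural stem cells, regional patterning, circadian timing and oxidative metabolism.

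The receptors did not change as a block: the steroid receptors Esr1, Pgr, Nr3c1 and Nr3c2 and the receptors Rora and Nr1d2 were highest in adult tissue, the estrogen-related receptors Esrrb and Esrrg peaked at E14.5, and Nr6a1, Rarg and Rxra were highest at E9.5. In edgeR's quasi-likelihood test with Benjamini-Hochberg adjustment over 17971 genes, at a threshold of 0.05, 22 of the 31 receptors tested were called for E14.5 against E9.5, of which 16 rose and 6 fell. Of all genes tested in that comparison, 64.6% were called, 34% higher and 30.7% lower. For P60 against E14.5, 25 receptors were called, 12 higher and 13 lower, where 76.1% of all genes were called, 36.7% higher and 39.4% lower. For P60 against E9.5, 28 were called, 16 higher and 12 lower, beside 82.6% of all genes, 42% higher and 40.6% lower. The share of receptors called was thus near that of all genes in each comparison. For P60 against E14.5, 19 receptors differed at least 2-fold, as did 56.8% of all genes, and 12 at least 4-fold, as did 29% of all genes; for E14.5 against E9.5 these were 18 (43.5% of all genes) and 10 (21.2%). All 28 receptors called for P60 against E9.5 differed at least 2-fold, as did 67.6% of all genes, and 21 differed at least 4-fold, as did 44% of all genes. The median log2 fold change of the receptors was 0.76 in the first step (E14.5 against E9.5), 0.07 in the second (P60 against E14.5) and 1.46 over the whole interval, beside 0.03, -0.06 and 0.05 over all genes. The 2 consecutive comparisons share the E14.5 libraries.

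Across both steps, 8 receptors rose and rose again: Esr1, Pgr, Nr3c1, Nr3c2, Esrra, Pparg, Rora and Rorb. That order of calls was found in 14.8% of all genes. A rise followed by a fall was called for 5 (Esrrb, Esrrg, Nr2e1, Nr2f2 and Nr5a2), beside 11.5% of all genes. A fall followed by a fall was called for 4 (Rxra, Rarg, Nr2c1 and Nr6a1), beside 14.6%, and Vdr alone fell and then rose, as 8.59% of all genes did. Rxrg, Nr4a2 and Nr4a3 rose in the first step and were not called in the second (7.6% of all genes), and Nr2f6 fell and was then not called (7.5%). Ppara, Nr1h3 and Nr1d2 were called higher and Ppard, Nr2c2, Nr2f1 and Nr0b1 lower in the second step alone, each order beside 13.3% of all genes. Rxrb and Nr1h2 were called in neither step, beside 8.78% of all genes.

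**Figure D1:**
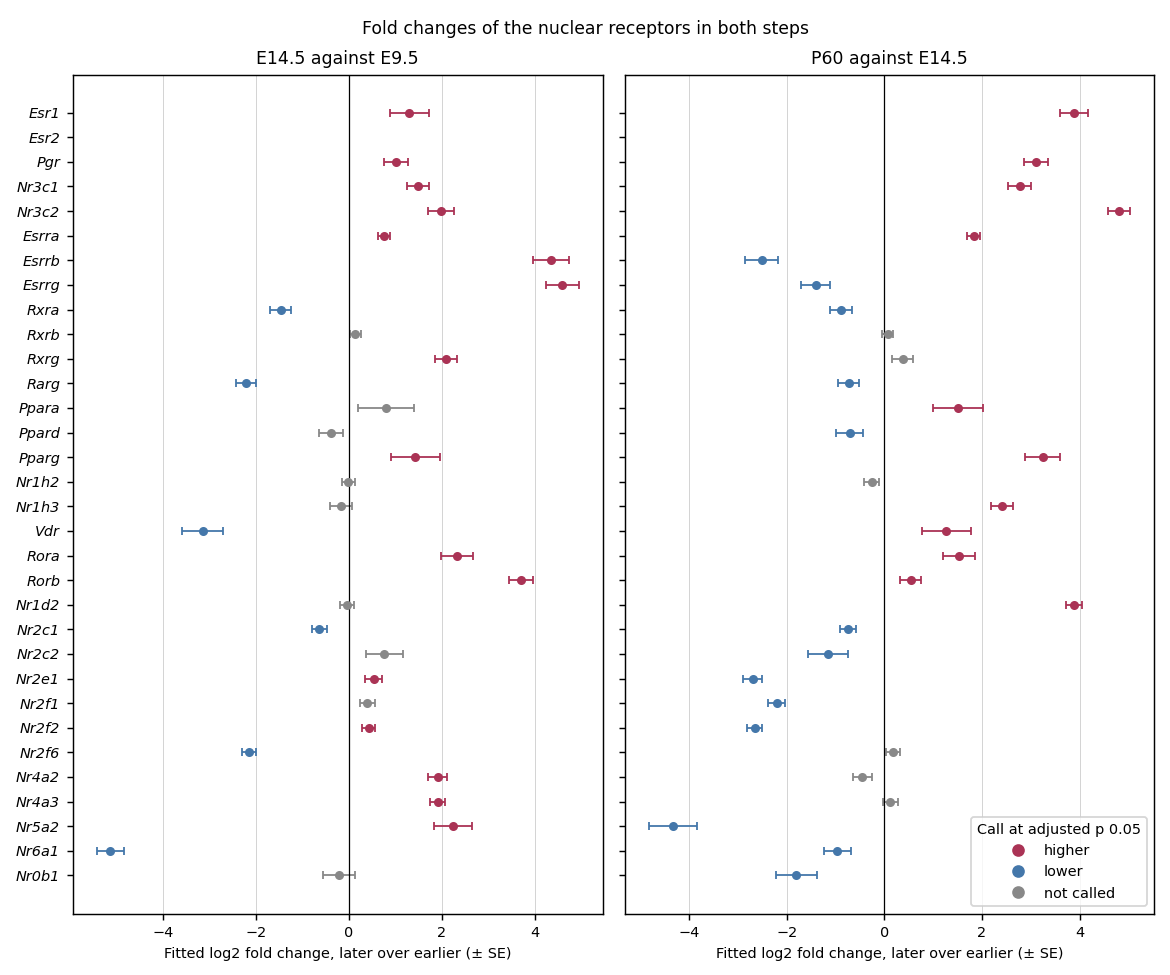
Fitted log2 fold change of each receptor with its standard error, for E14.5 against E9.5 on the left and P60 against E14.5 on the right; colour gives the call at an adjusted p of 0.05, and Esr2 was not tested. Esrrg (4.60) and Nr6a1 (-5.15) mark the ends of the first step, and Nr3c2 (4.80) and Nr5a2 (-4.33) those of the second.

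The summed level of the 32 genes moved little beside its makeup. It was between 1048 and 1057 CPM in the E9.5 libraries, between 932.5 and 999.4 CPM in the E14.5 libraries, and between 841.2 and 999.2 CPM in the P60 libraries. Within that sum, the steroid receptors averaged 6.34 ± 0.671 CPM at E9.5, 17.0 ± 4.40 CPM at E14.5 and 161.2 ± 24.8 CPM at P60 (SD, n = 3 each). ROR and Rev-erb genes averaged 16.1 ± 2.00, 44.0 ± 8.88 and 235.7 ± 15.2 CPM at the same stages. The Nr2 orphan receptors, the largest share of the sum in the embryo, averaged 461.8 ± 22.7, 546.0 ± 14.4 and 139.3 ± 22.9 CPM. Between 23 and 24 of the 32 genes reached 1 CPM in the E9.5 libraries, 26 in each E14.5 library, and 27 to 28 in the P60 libraries.

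Per kilobase of exon, Nr2f1 (COUP-TFI) had the highest level of the 32 at both embryonic ages, with 38.2 ± 4.79 CPM per kb at E9.5 and 50.1 ± 7.30 at E14.5. Rxrb, Nr2f6 and Nr6a1 came next at E9.5, with 20.8 ± 0.348, 20.8 ± 1.63 and 20.5 ± 1.94 CPM per kb, which differed by less than their SDs. At E14.5 the order went on with Rxrb (22.9 ± 0.955), Nr2f2 (16.4 ± 0.790) and Nr2e1 (15.7 ± 0.562), the last 2 of which overlapped within their SDs. At P60 Nr1d2 led with 29.2 ± 0.458 CPM per kb, followed by Rxrb with 24.1 ± 0.437 and Esrra with 23.7 ± 3.00, and the last 2 did not differ beyond their spread.

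Libraries within a stage differed by transcript length. The median deviation of genes with over 8108 exon bases minus that of genes with under 2737 was -0.82 (log2) in E14.5 replicate 1 and 0.73 in P60 replicate 2, against -0.55 to 0.42 in the other libraries. Across the 32 receptors, the deviation from the other libraries of the stage correlated with log exon length at r = -0.56 (Spearman's rho = -0.52) in E14.5 replicate 1 and 0.56 and 0.43 in replicates 2 and 3 (rho = 0.54 and 0.36). The value was -0.22, 0.52 and -0.47 (rho = -0.19, 0.47 and -0.48) in P60 replicates 1, 2 and 3, and between -0.28 and 0.25 in the E9.5 libraries. Deviations within a stage are not independent, since each is taken from the other libraries. E14.5 replicate 1 and P60 replicate 2 were the libraries left out together in an alternative, which, like a scaling by bins of exon length, was chosen after seeing the data. E9.5 replicate 1 also held cardiac and skeletal muscle transcripts. The summed muscle markers were 264.9 CPM there, and the lowest E9.5 sum was 4.95 CPM.

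**Figure D2:**
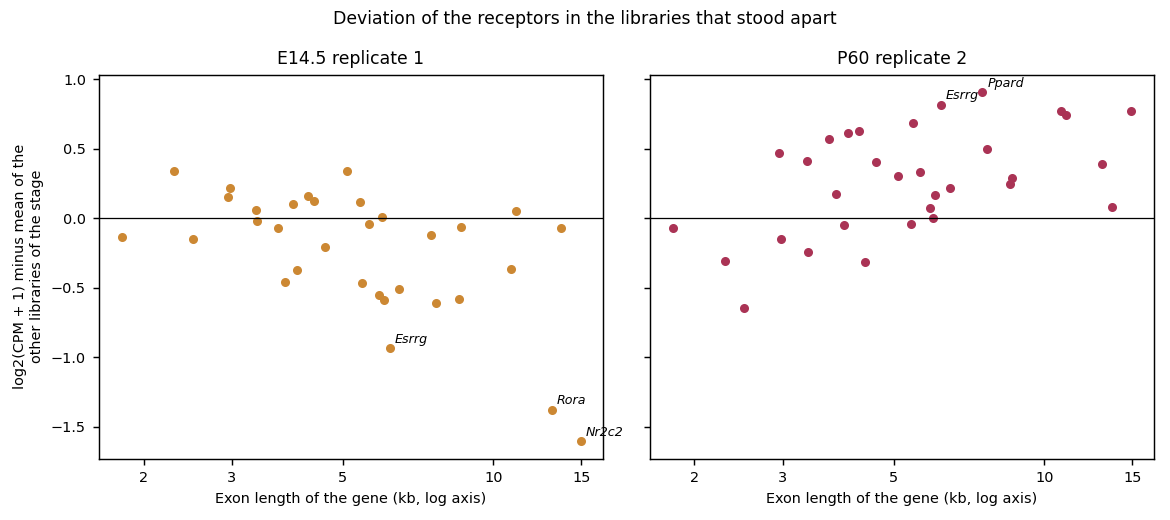
Each point is 1 of the 32 receptor genes, with its exon length in kb (log axis) against its log2(CPM + 1) in the library named minus the mean of the other libraries of the stage. Longer genes sit lower in E14.5 replicate 1 (r = -0.56) and higher in P60 replicate 2 (r = 0.52).

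Marker genes showed how the tissues differ. Summed over 5 genes each, neuron markers were between 182.5 and 206.9 CPM at E9.5, between 3750 and 4402 CPM at E14.5, and between 5106 and 5872 CPM at P60. Microglia markers ranged from 7.53 to 8.71, 44.9 to 56.5 and 269.0 to 323.6 CPM over the same stages, and 4 oligodendrocyte markers from 47.7 to 53.2, 42.7 to 66.7 and 12342 to 14679 CPM. Neural progenitor markers summed to 1273 to 1554, 1337 to 1950 and 104.2 to 129.7 CPM. The 4 mesenchyme markers summed to 324.22 to 430.01 CPM at E9.5, 261.77 to 583.79 CPM at E14.5, and 17.62 to 30.02 CPM at P60. Among them, Col1a1 ranged from 92.19 to 285.54 CPM across the E14.5 libraries. The trimmed embryonic tissue thus still held mesenchyme transcripts, in amounts that differed between libraries. Surface epithelium markers lay between 108.6 and 164.0 CPM at E9.5 and below 5 CPM later, and erythroid markers between 1570 and 2115 CPM at E9.5, 217.0 and 411.2 CPM at E14.5, and 5.26 and 18.2 CPM at P60. The 5 pituitary markers summed to 13.1 to 17.0 CPM at E9.5, 3.47 to 6.72 CPM at E14.5, and 5.14 to 12.8 CPM at P60. Pitx1 had the highest mean of the 5 at E9.5 and Pomc at both later stages, while Gh was at 0 in every library. The part of these markers in the receptor changes was not tested.

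The largest rise and the largest fall of each step belonged to Esrrg and Nr6a1 (E14.5 against E9.5) and to Nr3c2 and Nr5a2 (P60 against E14.5). Their promoters are shown because these 4 genes span the range of the data. Each line gives the 250 bases before a RefSeq start (GRCm38.p6), 5′ to 3′ on the gene's strand. Where several starts were listed, that nearest the gene's 5′ end in GENCODE was taken. The windows are chr1:187608756-187609005 (plus strand) for Esrrg, chr2:38926462-38926711 (minus) for Nr6a1, chr8:76902080-76902329 (plus) for Nr3c2 and chr1:136960449-136960698 (minus) for Nr5a2. Capitals mark the nuclear receptor half-site AGGTCA, the steroid half-site AGAACA, the E-box CACGTG and the TATA box TATAAA on either strand.
Esrrg: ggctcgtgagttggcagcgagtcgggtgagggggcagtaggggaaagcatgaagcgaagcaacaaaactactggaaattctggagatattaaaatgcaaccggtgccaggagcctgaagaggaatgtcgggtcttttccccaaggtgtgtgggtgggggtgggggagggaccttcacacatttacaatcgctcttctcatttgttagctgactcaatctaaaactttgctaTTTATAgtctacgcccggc
Nr6a1: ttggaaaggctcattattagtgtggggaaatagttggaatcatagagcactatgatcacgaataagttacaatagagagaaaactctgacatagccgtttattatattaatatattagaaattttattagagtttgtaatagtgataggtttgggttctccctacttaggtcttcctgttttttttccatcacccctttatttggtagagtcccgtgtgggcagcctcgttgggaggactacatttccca
Nr3c2: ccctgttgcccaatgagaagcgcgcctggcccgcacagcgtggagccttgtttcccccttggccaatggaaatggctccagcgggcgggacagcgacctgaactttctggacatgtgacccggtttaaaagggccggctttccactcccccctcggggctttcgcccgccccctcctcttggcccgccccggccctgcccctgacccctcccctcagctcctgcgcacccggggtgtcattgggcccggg
Nr5a2: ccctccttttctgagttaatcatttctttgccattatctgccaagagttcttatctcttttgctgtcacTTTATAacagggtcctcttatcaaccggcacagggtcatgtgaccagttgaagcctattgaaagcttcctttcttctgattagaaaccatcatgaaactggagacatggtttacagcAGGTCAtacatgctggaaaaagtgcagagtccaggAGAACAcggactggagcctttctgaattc
Esrrg held a TATA box and Nr5a2 a TATA box and both half-sites, while the Nr6a1 and Nr3c2 windows held none of the 4 motifs. Windows at other listed starts of these genes, not printed, differed. That of Nr6a1 held 2 nuclear receptor half-sites, that of Nr5a2 a steroid half-site only, and those of Esrrg none of the motifs. Nr3c2 had 17 CpG dinucleotides in the window, Esrrg 9, Nr6a1 4 and Nr5a2 2. Promoters were listed for 31 of the 32 genes, with 47 starts in all. The nuclear receptor half-site stood in 19.1% of these and in 14% of 32851 promoters of the same length, the steroid half-site in 6.38% against 16.1%, the E-box in 2.13% against 6.02%, and the TATA box in 12.8% against 12.4%. The receptor promoters had a median of 12 CpG dinucleotides, against 6 over all promoters. A match describes the letters in this window only.

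Steroid receptors are the members that bind steroid hormones. Of the 5 among the 32 genes, the 4 that were tested rose in both steps, as did 14.8% of all genes. The largest change of all 32 genes over the full interval was in Nr3c2, the mineralocorticoid receptor, which binds corticosterone and aldosterone. Nr3c2 had 0.402, 0.431 and 0.575 CPM at E9.5, 1.24, 2.10 and 2.27 CPM at E14.5, and 50.1, 57.9 and 49.2 CPM at P60. The 3 stages did not overlap. The log2 fold change was 1.99 ± 0.27 (SE) for E14.5 against E9.5 (adjusted p = 7.8e-05), 4.80 ± 0.23 for P60 against E14.5 (adjusted p = 3.2e-08), and 6.79 ± 0.27 for P60 against E9.5.

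Nr3c1, the glucocorticoid receptor, had the highest level per kilobase of the steroid receptors listed at every stage, 10.7 CPM per kb at P60 against 8.09 for Nr3c2. It had 3.72, 5.21 and 3.96 CPM at E9.5, 8.68, 14.4 and 13.1 CPM at E14.5, and 72.3, 102.8 and 72.4 CPM at P60. The highest value at each of the 3 stages was in replicate 2, and the stages did not overlap. It rose by 1.49 ± 0.24 (adjusted p = 0.00023) and then by 2.77 ± 0.24 on the log2 scale (adjusted p = 1.5e-06). The second rise was 3.41 under length-bin scaling. Pgr, the progesterone receptor, had 1.21, 1.16 and 1.53 CPM at E9.5, 1.72, 3.44 and 2.70 CPM at E14.5, and 21.9, 25.5 and 20.8 CPM at P60. Its stages did not overlap, and it rose by 1.01 ± 0.26 (adjusted p = 0.0052) and by 3.11 ± 0.25 (adjusted p = 8.9e-07), where length-bin scaling gave 3.77 for the second step.

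Esr1, estrogen receptor alpha, was rare in the embryo. It had 0.134, 0.0663 and 0.0638 CPM at E9.5, from 2 to 4 reads a library, then 0.181, 0.280 and 0.201 CPM at E14.5 and 3.27, 3.50 and 3.24 CPM at P60. All P60 libraries stood more than 10-fold above every embryonic one. The second rise was 3.89 ± 0.29 (adjusted p = 5.3e-07) and 4.76 under length-bin scaling. The first, 1.30 ± 0.42 (adjusted p = 0.027), lost its call under length-bin scaling (adjusted p = 0.055), with DESeq2 (0.075) and without E9.5 replicate 2 (0.089), E9.5 replicate 3 (0.097) or E14.5 replicate 2 (0.11). Esr2, its relative, had few reads throughout, at 0.201, 0.133 and 0.223 CPM at E9.5, 0.181, 0.168 and 0.230 CPM at E14.5, and 0.333, 0.0881 and 0.236 CPM at P60, and its stages overlapped.

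**Figure D3:**
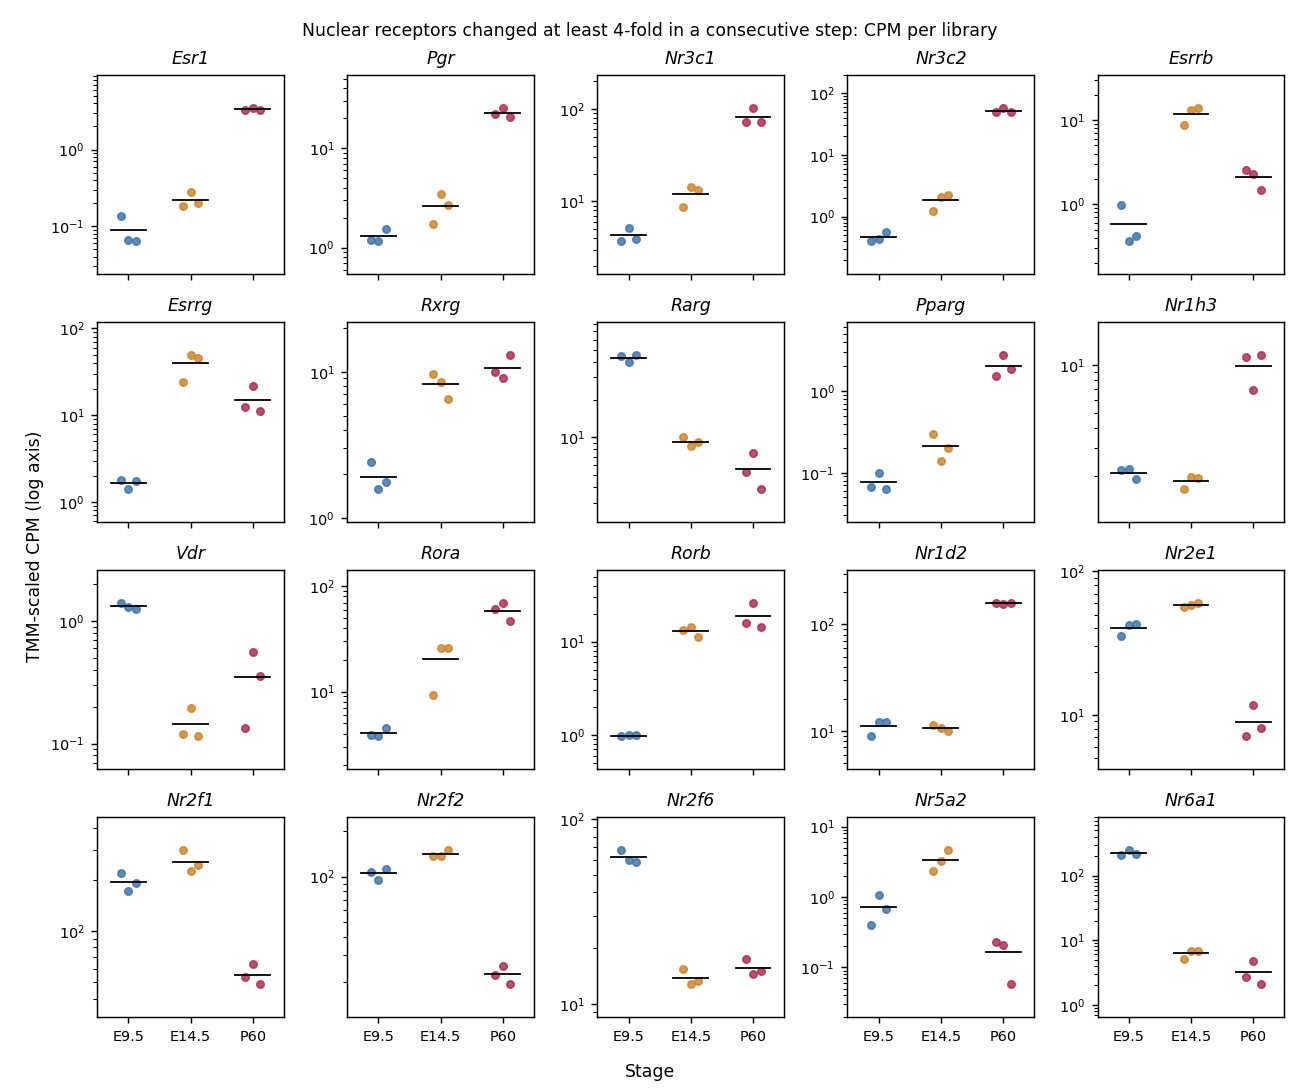
TMM-scaled CPM (log axis) of the 20 receptors changed at least 4-fold in a consecutive step, with 1 point per library and a line at the mean of each stage. Nr3c2 reaches 52.4 CPM at P60 against 0.469 at E9.5, Nr6a1 averages 222 CPM at E9.5 against 6.27 at E14.5, and Esrrb and Esrrg are highest at E14.5.

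The 3 estrogen-related receptors are orphans that bind no estrogen and are known for driving genes of mitochondrial metabolism; Esrrb is also known as a factor of embryonic stem cells. They parted ways after E14.5. Esrrg had 1.77, 1.43 and 1.72 CPM at E9.5, 24.4, 49.0 and 45.9 CPM at E14.5, and 12.5, 21.5 and 11.1 CPM at P60. Replicate 1 was the lowest E14.5 library and replicate 2 the highest P60 library, and even so the stages did not overlap. Esrrg rose by 4.60 ± 0.35 (adjusted p = 9.7e-07), a 24.2-fold difference, and fell by 1.40 ± 0.30 (adjusted p = 0.0013); the fall was -2.01 without both libraries that stood apart.

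Esrrb had 0.971, 0.365 and 0.415 CPM at E9.5, 8.74, 13.2 and 14.0 CPM at E14.5, and 2.53, 2.32 and 1.47 CPM at P60. E9.5 replicate 1, the library with muscle transcripts, was highest of its stage, and no 2 stages overlapped. Esrrb rose by 4.36 ± 0.39 (adjusted p = 2.8e-06), or by 4.95 without E9.5 replicate 1, and fell by 2.51 ± 0.34 (adjusted p = 4.9e-05). Esrra, in contrast, rose in both steps and averaged 17.4 ± 1.17 CPM at E9.5, 29.3 ± 1.72 CPM at E14.5 and 104 ± 13.1 CPM at P60, with log2 fold changes of 0.76 ± 0.14 (adjusted p = 0.00066) and 1.83 ± 0.14 (adjusted p = 7.2e-07).

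Among the retinoid X receptors, the shared partners of the family, the 3 genes differed in course. Rxra fell in both steps and averaged 99.1 ± 4.41 CPM at E9.5, 35.7 ± 6.60 CPM at E14.5 and 19.3 ± 6.46 CPM at P60, with changes of -1.47 ± 0.23 (adjusted p = 0.00022) and -0.89 ± 0.23 (adjusted p = 0.0047). Rxrg had 2.41, 1.59 and 1.76 CPM at E9.5, 9.68, 8.48 and 6.50 CPM at E14.5, and 9.97, 9.02 and 12.9 CPM at P60. E9.5 stood apart from both later stages, which overlapped. Rxrg rose by 2.10 ± 0.24 (adjusted p = 2.0e-05), and its P60 value against E14.5, 0.37 ± 0.22, was not called (adjusted p = 0.14); it was 0.61 without both libraries that stood apart (adjusted p = 0.033) and -0.08 under length-bin scaling (adjusted p = 0.69).

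Rxrb averaged 82.7 ± 1.38 CPM at E9.5, 90.9 ± 3.79 CPM at E14.5 and 95.6 ± 1.74 CPM at P60. Its change over the whole interval, 0.21 ± 0.11, was not called (adjusted p = 0.11), although it was called by DESeq2 (0.23, adjusted p = 0.013), under upper-quartile scaling (0.36, adjusted p = 0.011), in a fit of these 2 stages only (0.28, adjusted p = 0.049) and without both libraries that stood apart (0.23, adjusted p = 0.018). Rarg, a retinoic acid receptor, had 44.6, 39.7 and 45.0 CPM at E9.5, 10.0, 8.53 and 9.17 CPM at E14.5, and 5.23, 7.52 and 3.89 CPM at P60. No 2 stages overlapped, and it fell by 2.22 ± 0.21 (adjusted p = 5.4e-06) and by 0.74 ± 0.21 (adjusted p = 0.0088).

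The lipid-sensing receptors were mostly low in the embryo. Nr1h3 (LXR alpha), an oxysterol receptor, had 2.18, 2.19 and 1.92 CPM at E9.5, 1.66, 1.96 and 1.93 CPM at E14.5, and 11.2, 6.90 and 11.5 CPM at P60. P60 stood apart from both embryonic stages, which overlapped, and P60 replicate 2 was the lowest of its stage. Nr1h3 rose by 2.41 ± 0.23 for P60 against E14.5 (adjusted p = 3.7e-06) after a first step of -0.18 ± 0.23 (adjusted p = 0.52). Its relative Nr1h2 (LXR beta) averaged 52.4 ± 1.07 CPM at E9.5, 51.9 ± 1.31 CPM at E14.5 and 43.3 ± 8.12 CPM at P60 and was called in no comparison. It was called lower for P60 against E14.5 under length-bin scaling (-0.40, adjusted p = 0.020) and without both libraries that stood apart (-0.40, adjusted p = 0.0045), and for P60 against E9.5 in the same settings (-0.42, adjusted p = 0.014 and 0.0017). Without P60 replicate 2 alone it was called lower for P60 against E14.5 (-0.42, adjusted p = 0.0071) and against E9.5 (-0.42, adjusted p = 0.0058).

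Pparg, a fatty acid receptor known from fat cells and macrophages, had 0.0669, 0.0995 and 0.0638 CPM at E9.5, 0.302, 0.140 and 0.201 CPM at E14.5, and 1.53, 2.73 and 1.86 CPM at P60. The 3 stages did not overlap, on 2 to 3 reads a library at E9.5. It rose by 3.24 ± 0.36 in the second step (adjusted p = 1.1e-05). The first rise, 1.43 ± 0.53 (adjusted p = 0.035), was lost with DESeq2 (0.08), with the replicate number as a block (0.050), and without any 1 of E9.5 replicate 1, 2 or 3 or E14.5 replicate 1 or 3 (adjusted p between 0.053 and 0.12), as it was without both libraries that stood apart (1.12, adjusted p = 0.11). Ppara averaged 0.230 ± 0.0593, 0.400 ± 0.242 and 1.14 ± 0.554 CPM over the 3 stages. Its second step, 1.50 ± 0.51 (adjusted p = 0.020), was lost without P60 replicate 2 (adjusted p = 0.055), without P60 replicate 3 (0.094) and without both libraries that stood apart (1.01, adjusted p = 0.085).

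Ppard, the broadly expressed PPAR, averaged 28.7 ± 4.22 CPM at E9.5, 21.9 ± 1.67 CPM at E14.5 and 13.4 ± 5.89 CPM at P60. It fell for P60 against E14.5 by 0.71 ± 0.27 (adjusted p = 0.031), but the fall was 0.12 under length-bin scaling (adjusted p = 0.61) and was lost under 8 of 19 alternatives, among them without P60 replicate 3 (-0.46, adjusted p = 0.082). Vdr, the vitamin D receptor, had 1.41, 1.29 and 1.25 CPM at E9.5, 0.121, 0.196 and 0.115 CPM at E14.5, and 0.133, 0.558 and 0.354 CPM at P60. E9.5 stood above every later library, while E14.5 and P60 overlapped. Vdr fell by 3.15 ± 0.45 (adjusted p = 0.0001); its second step, 1.27 ± 0.50 (adjusted p = 0.038), was lost under 9 of 19 alternatives and was 0.76 without P60 replicate 2 (adjusted p = 0.19) and 0.66 without both libraries that stood apart (adjusted p = 0.30).

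Rora and Rorb, constitutive activators known from the cerebellum and from cortical layers and the retina, both rose early. Rora had 3.92, 3.78 and 4.50 CPM at E9.5, 9.35, 25.9 and 25.8 CPM at E14.5, and 60.4, 69.6 and 46.4 CPM at P60. E14.5 replicate 1 stood well below its stage, and the stages did not overlap. Rora rose by 2.32 ± 0.35 (adjusted p = 0.00015) and 1.53 ± 0.33 (adjusted p = 0.0013), the second 2.43 under length-bin scaling. Rorb had 0.971, 0.995 and 0.990 CPM at E9.5, 13.3, 14.3 and 11.3 CPM at E14.5, and 15.8, 26.1 and 14.498 CPM at P60. The E9.5 libraries were nearly identical and P60 replicate 2 was far above the others of its stage. Rorb rose by 3.71 ± 0.26 (adjusted p = 4.9e-07); the second rise, 0.54 ± 0.22 (adjusted p = 0.042), was lost under 9 of 19 alternatives, among them without any 1 of the embryonic libraries, and was 0.22 without P60 replicate 2 (adjusted p = 0.20), 0.24 without both libraries that stood apart (adjusted p = 0.19) and 0.40 with library totals (adjusted p = 0.12). It was 1.33 under length-bin scaling (adjusted p = 4.3e-05).

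Nr1d2 (Rev-erb beta), a haem-binding repressor of the circadian clock, was the receptor with the smallest adjusted p in the second step. It had 8.94, 12.1 and 12.1 CPM at E9.5, 11.4, 10.7 and 10.0 CPM at E14.5, and 159.5, 155.3 and 159.6 CPM at P60. The embryonic stages overlapped, and every P60 library exceeded every embryonic one. Nr1d2 rose by 3.88 ± 0.16 for P60 against E14.5 (adjusted p = 1.1e-08), a 14.8-fold difference, and by 3.84 ± 0.16 against E9.5. The labels give no hour of collection.

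The Nr2 orphan receptors were abundant in the embryo, and 5 of the 6 fell in the second step, beside 39.4% of all genes lower. Nr2f1 had 220.0, 171.4 and 192.2 CPM at E9.5, 297.1, 225.9 and 243.0 CPM at E14.5, and 53.7, 63.5 and 49.0 CPM at P60. The P60 libraries were all below the embryonic ones. Nr2f1 fell by 2.21 ± 0.17 (adjusted p = 7.6e-07); its first step, 0.39 ± 0.16, missed the threshold (adjusted p = 0.055) and passed it under 10 of 19 alternatives, with values from 0.28 to 0.50, the replicate block among them (0.39, adjusted p = 0.046). Nr2f2 (COUP-TFII), a patterning factor of the ventral brain and of vessels, had 107.5, 95.1 and 113.1 CPM at E9.5, 137.7, 137.7 and 149.5 CPM at E14.5, and 22.3, 25.7 and 19.5 CPM at P60.

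No 2 stages overlapped for Nr2f2. It fell by 2.66 ± 0.15 (adjusted p = 8.3e-08), or by 2.03 under length-bin scaling, after a rise of 0.43 ± 0.14 (adjusted p = 0.020) that was lost without E9.5 replicate 2 (adjusted p = 0.095) or E14.5 replicate 3 (0.066). Nr2e1 (Tlx), known for maintaining neural stem cells, had 35.2, 42.5 and 42.7 CPM at E9.5, 56.2, 57.9 and 60.4 CPM at E14.5, and 7.10, 11.8 and 8.05 CPM at P60. Its stages did not overlap, and it fell by 2.70 ± 0.20 (adjusted p = 4.7e-07). The preceding rise, 0.54 ± 0.18 (adjusted p = 0.024), was lost without E9.5 replicate 1 (adjusted p = 0.080), E14.5 replicate 2 (0.052) or E14.5 replicate 3 (0.063).

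Nr2f6 had the other order. It had 67.5, 59.9 and 58.5 CPM at E9.5, 15.4, 12.9 and 13.4 CPM at E14.5, and 17.5, 14.54 and 15.1 CPM at P60. E9.5 stood above all later libraries, which overlapped. Nr2f6 fell by 2.16 ± 0.14 (adjusted p = 3.4e-07), and its second step, 0.18 ± 0.14 (adjusted p = 0.27), was called under upper-quartile scaling (0.34, adjusted p = 0.049) and without both libraries that stood apart (0.31, adjusted p = 0.039). Of its exon bases, 54.4% overlap Ocel1 on the other strand, and since the strand setting of the counting is not given in the sources used here, reads of the pair cannot be told apart. Ocel1 averaged 27.7, 10.7 and 9.04 CPM over the 3 stages.

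Nr2c1 (TR2) and Nr2c2 (TR4) are a pair of testicular orphan receptors. Nr2c1 averaged 23.3 ± 0.281, 14.9 ± 1.74 and 8.84 ± 1.67 CPM over the stages and fell by 0.65 ± 0.16 (adjusted p = 0.0047) and 0.75 ± 0.16 (adjusted p = 0.0016). Nr2c2, the receptor with the longest exons, averaged 36.6 ± 10.1 CPM at E9.5, 62.1 ± 31.6 CPM at E14.5 and 27.9 ± 9.61 CPM at P60, and E14.5 ranged from 25.8 CPM in replicate 1 to 82.9 CPM in replicate 2. Its fall of 1.15 ± 0.40 (adjusted p = 0.023) became -0.26 under length-bin scaling (adjusted p = 0.41), -1.84 without both libraries that stood apart, and lost its call without E14.5 replicate 2 or 3 or P60 replicate 1 or 3 (adjusted p between 0.074 and 0.086). Its first step, 0.76 ± 0.40 (adjusted p = 0.12), was called without E14.5 replicate 1 (1.14, adjusted p = 0.0054), without both libraries that stood apart (1.14, adjusted p = 0.00042) and with the replicate block (0.66, adjusted p = 0.031). For P60 against E9.5 it was -0.39 (adjusted p = 0.38), and -0.70 without both libraries that stood apart (adjusted p = 0.0084). Of its exon bases, 31.2% overlap Mrps25 and Gm44249.

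Nr6a1 (germ cell nuclear factor), a repressor known for silencing pluripotency genes in the early embryo, had the largest fall of all 32 genes. It had 206.4, 245.9 and 213.6 CPM at E9.5, 5.10, 6.83 and 6.87 CPM at E14.5, and 2.70, 4.82 and 2.12 CPM at P60. Every E9.5 library was at least 10-fold above every later one. Nr6a1 fell by 5.15 ± 0.29 (adjusted p = 1.0e-07), a 35.4-fold difference. A further fall of 0.96 ± 0.27 at P60 (adjusted p = 0.0069) shrank to 0.14 under length-bin scaling (adjusted p = 0.44).

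Nr5a2 (LRH-1), a phospholipid-binding receptor better known from liver and early embryo, had 0.402, 1.06 and 0.670 CPM at E9.5, 2.32, 3.22 and 4.60 CPM at E14.5, and 0.233, 0.206 and 0.0589 CPM at P60. E14.5 stood above both other stages, and P60 rested on 2 to 7 reads a library. It rose by 2.24 ± 0.41 (adjusted p = 0.00067) and fell by 4.33 ± 0.50 (adjusted p = 1.4e-05). Nr0b1 (DAX1), a receptor without a DNA-binding domain known as a repressor of Nr5a receptors, averaged 0.633 ± 0.0884, 0.547 ± 0.113 and 0.158 ± 0.0957 CPM and fell by 1.80 ± 0.42 in the second step (adjusted p = 0.0023; -2.51 under length-bin scaling).

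The Nr4a receptors are ligand-independent and inducible by neuronal activity, and Nr4a2 (Nurr1) is needed by midbrain dopamine neurons. Nr4a2 averaged 8.87 ± 0.440 CPM at E9.5, 33.4 ± 5.16 CPM at E14.5 and 24.5 ± 6.76 CPM at P60, and Nr4a3 (Nor1) 5.76 ± 0.157, 21.7 ± 3.77 and 23.6 ± 1.34 CPM. Both rose by 1.91 in the first step, with standard errors of 0.21 (adjusted p = 1.3e-05) and 0.16 (adjusted p = 1.7e-06). In the second step Nr4a2 changed by -0.45 ± 0.20 without passing the threshold (adjusted p = 0.059); it passed under 6 of 19 alternatives, at -0.69 without P60 replicate 2 (adjusted p = 0.0033), -0.57 without E14.5 replicate 1 (adjusted p = 0.025), -0.81 without both of these libraries (adjusted p = 0.00016), -0.44 under length-bin scaling (adjusted p = 0.041) and -0.46 with the replicate block (adjusted p = 0.034). Nr4a3 changed by 0.13 ± 0.15 (adjusted p = 0.46), and by 0.45 under length-bin scaling (adjusted p = 0.017).

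Whether relatives changed alike was asked of 14 pairs, from the log2 ratio of (CPM + 1) per library and the F statistic in an exact permutation test over 1680 assignments of the libraries to stages (two-sided, smallest possible p = 0.0036). The ratio differed between stages in 11 of the 14 pairs after adjustment over the pairs. No such share was computed for pairs of other genes, and 64.6% to 82.6% of all genes were called in a comparison of stages. The count therefore does not show whether relatives differ more often than other pairs. Rxra, Ppard, Nr2f1 and Esrra each stand in more than 1 pair. The Rxrg/Rxra ratio was -4.81, -5.28 and -5.24 in the E9.5 libraries, -1.46, -2.03 and -2.49 in the E14.5 libraries, and -0.86, -1.42 and -0.003 in the P60 libraries (adjusted p = 0.0083, exact permutation test). The ratio was higher at each later stage, and no 2 stages overlapped. These ratios are not corrected for length, so stages are compared within a pair, not the levels of its genes. Libraries also differed by transcript length, and Rxrg has 2297 exon bases where Rxra has 5462. The part of this in the change of a ratio was not tested, and no pair was run under length-bin scaling. Rxrb/Rxra had a mean of -0.26 at E9.5, 1.34 at E14.5 and 2.31 at P60, with no overlap (adjusted p = 0.0083, exact permutation test).

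Esrrb/Esrra averaged -3.56, -1.25 and -5.09 over the 3 stages (adjusted p = 0.0083, exact permutation test) and Esrrg/Esrra -2.80, 0.37 and -2.76 (adjusted p = 0.045, exact permutation test), both highest at E14.5. Esrrg/Esrra was 0.73 and 0.71 in E14.5 replicates 2 and 3 and -0.34 in replicate 1. Nr2f6/Nr2f1 was lowest at E14.5, with means of -1.63, -4.10 and -1.75 (adjusted p = 0.030, exact permutation test). Nr3c2/Nr3c1 averaged -1.84, -2.18 and -0.63 (adjusted p = 0.017, exact permutation test); its E14.5 mean lay 0.34 below its E9.5 mean here and 0.31 above it with a pseudocount of 0.1 CPM, while P60 was highest with either. Nr1h3/Nr1h2 averaged -4.11, -4.22 and -2.04 (adjusted p = 0.017, exact permutation test), and Rorb/Rora -1.35, -0.49 and -1.62 (adjusted p = 0.014, exact permutation test). For Rorb/Rora, E14.5 replicate 1 was 0.46 where the other E14.5 libraries were -0.81 and -1.12. Esr2/Esr1, Ppara/Ppard and Pparg/Ppard also passed (adjusted p = 0.0083 each, exact permutation test). In the embryo Esr1, Esr2, Ppara and Pparg averaged below the pseudocount of 1 CPM, so the size of these changes depends on it. With a pseudocount of 0.1 CPM the 2 steps of Esr2/Esr1 were -0.73 and -3.39, in place of -0.16 and -1.80. Those of Pparg/Ppard were 1.18 and 3.56, in place of 0.54 and 2.06.

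The pairs Nr2f2/Nr2f1 (adjusted p = 0.058), Nr2c1/Nr2c2 (0.079) and Nr4a3/Nr4a2 (0.079, exact permutation tests) did not pass. Their stage means were -0.88, -0.84 and -1.27 for Nr2f2/Nr2f1, -0.60, -1.83 and -1.52 for Nr2c1/Nr2c2, and -0.55, -0.60 and -0.02 for Nr4a3/Nr4a2. The adjusted p of Nr2f2/Nr2f1 was 0.050 with a pseudocount of 0.1 CPM.

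**Figure D4:**
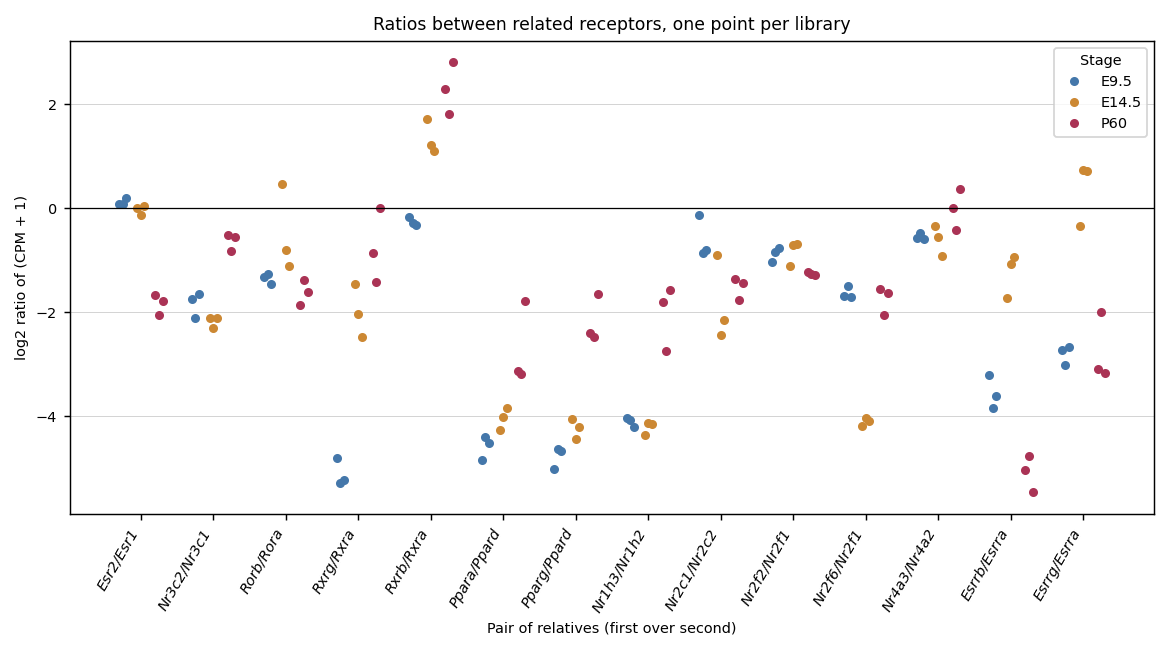
log2 ratio of (CPM + 1) of the first over the second gene of 14 pairs of relatives, with 1 point per library and colour by stage. Esrrb/Esrra and Esrrg/Esrra are highest at E14.5, Nr2f6/Nr2f1 is lowest there, and Rxrg/Rxra and Rxrb/Rxra increase from stage to stage.

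Of 17 further nuclear receptors, 9 passed the low-count filter; the other 8, Hnf4a, Nr1i2 and Nr1h4 among them, averaged below 0.3 CPM at each stage. For E14.5 against E9.5, 4 of the 9 rose and 1 fell (34% and 30.7% of all genes), and for P60 against E14.5, 5 rose and 3 fell (36.7% and 39.4%). Thra, the main thyroid hormone receptor of brain, averaged 24.1 ± 2.92 CPM at E9.5, 678.3 ± 127 CPM at E14.5 and 740.2 ± 75.8 CPM at P60, with a first rise of 4.82 ± 0.20 (adjusted p = 1.9e-08). Its relative Thrb rose by 3.65 ± 0.29 in the second step (adjusted p = 8.4e-07; 4.27 under length-bin scaling), after 0.07 ± 0.29 in the first (adjusted p = 0.85). Nr1d1 (Rev-erb alpha) rose by 1.02 ± 0.26 (adjusted p = 0.0058) and 3.52 ± 0.27 (adjusted p = 6.1e-07) and averaged 59.4 ± 22.7 CPM at P60.

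Nr5a1 (SF-1), known from the ventromedial hypothalamus and the steroid-making organs, rose by 3.02 ± 0.42 (adjusted p = 8.5e-05) and fell by 3.13 ± 0.42 (adjusted p = 4.7e-05; -4.02 without P60 replicate 3), the same order of calls as its relative Nr5a2. The retinoic acid receptor Rara fell in both steps, by 0.89 ± 0.19 (adjusted p = 0.0016) and 1.40 ± 0.19 (adjusted p = 5.8e-05), and Rarb fell by 0.69 ± 0.17 in the second (adjusted p = 0.0040).

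Most cofactors were lower in adult tissue. Of 13 corepressors tested, 11 fell and 1 rose for P60 against E14.5 (median -1.54), beside 39.4% of all genes lower. The falls included Lcor at -4.46 ± 0.65 (adjusted p = 9.1e-05), Rcor1 at -2.33 ± 0.23 (adjusted p = 5.3e-06) and Atn1 at -2.25 ± 0.31 (adjusted p = 5.7e-05), and Hr, a corepressor of thyroid hormone and vitamin D receptors, rose by 1.27 ± 0.29 (adjusted p = 0.0021). Lcor was among the genes that varied with the libraries, with 5.49 CPM in E14.5 replicate 1 and 28.4 and 30.6 CPM in replicates 2 and 3; its fall was -3.80 under length-bin scaling and -5.48 without both libraries that stood apart. For E14.5 against E9.5, 3 corepressors fell and 1 rose, beside 30.7% of all genes lower and 34% higher. Without both libraries that stood apart, 7 of the 13 were called, beside 71.8% of all genes.

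Of 13 coactivators tested, 8 fell and 2 rose for P60 against E14.5 (median -1.81), beside 39.4% of all genes lower and 36.7% higher. Ncoa6 fell by 2.75 ± 0.19 (adjusted p = 2.9e-07), the acetyltransferase gene Ep300 by 2.73 ± 0.32 (adjusted p = 1.8e-05) and Pprc1 by 2.15 ± 0.19 (adjusted p = 1.7e-06), where length-bin scaling gave -1.93 for Ncoa6 and -1.88 for Ep300, and -3.32 was found for Ep300 without both libraries that stood apart. Ncoa7 rose by 1.95 ± 0.20 (adjusted p = 6.8e-06; 2.85 under length-bin scaling). Ppargc1a, the PGC-1 alpha coactivator of the estrogen-related receptors and PPARs, rose by 2.94 ± 0.26 in the first step (adjusted p = 2.6e-06); its second rise, 0.66 ± 0.23 (adjusted p = 0.022), was 0.44 without E14.5 replicate 1 (adjusted p = 0.060) and 0.47 without P60 replicate 2 (adjusted p = 0.092). In the first step 3 coactivators rose and 4 fell (34% and 30.7% of all genes), among them Ncoa1, higher by 2.46 ± 0.23 (adjusted p = 4.7e-06), and Carm1, lower by 1.23 ± 0.29 (adjusted p = 0.0032).

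Chaperones that hold steroid receptors fell earlier: 8 of 9 were lower for E14.5 against E9.5 (median -1.18), while 30.7% of all genes were lower, and the remaining gene, Bag1, was at -0.12 ± 0.25 (adjusted p = 0.69). Ppid fell by 1.34 ± 0.16 (adjusted p = 2.6e-05), Fkbp4 by 1.28 ± 0.18 (adjusted p = 9.9e-05) and Stip1 by 1.24 ± 0.19 (adjusted p = 0.00018). At P60 against E14.5, 3 rose and 2 fell, beside 36.7% of all genes higher and 39.4% lower. Fkbp5, a brake on the glucocorticoid receptor and itself its target, was lower by 1.68 ± 0.18 (adjusted p = 7.5e-06). Under length-bin scaling the value for Fkbp5 was -0.88. The rise of Hspa8 was 0.75 ± 0.18 (adjusted p = 0.0028).

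The enzymes that make or clear ligands included the largest changes in a consecutive step among the partner and target genes listed. Hsd11b1, which regenerates active glucocorticoid, averaged 0.0866 CPM at E9.5, 0.142 CPM at E14.5 and 70.8 CPM at P60 and rose by 8.90 ± 0.39 in the second step (adjusted p = 1.8e-08; 9.83 without E14.5 replicate 2). Hsd11b2, which inactivates glucocorticoid, averaged 23.0, 5.42 and 0.0615 CPM and fell by 2.09 ± 0.16 (adjusted p = 8.6e-07) and 6.38 ± 0.26 (adjusted p = 1.0e-08; -7.06 under length-bin scaling). Cyp46a1, which turns brain cholesterol into an LXR ligand, rose by 1.60 ± 0.20 (adjusted p = 3.5e-05) and 3.70 ± 0.20 (adjusted p = 6.6e-08), and Cyp27a1, another oxysterol enzyme, fell by 2.11 ± 0.21 (adjusted p = 7.5e-06) and rose by 3.29 ± 0.22 (adjusted p = 2.3e-07). Cyp11a1, of steroid synthesis, fell by 6.05 ± 1.90 for E14.5 against E9.5 (adjusted p = 0.019), but the value was -0.82 without E9.5 replicate 1 (adjusted p = 0.45), the library with muscle transcripts, and -4.61 with the replicate block (adjusted p = 0.17).

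Target genes of the receptors moved in both directions. Of 11 glucocorticoid receptor targets, 6 rose and 3 fell for P60 against E14.5 (median 0.47), beside 36.7% of all genes higher and 39.4% lower. Klf9 averaged 2.33 CPM at E9.5, 2.15 CPM at E14.5 and 63.4 CPM at P60 and rose by 4.88 ± 0.37 in the second step (adjusted p = 6.5e-07; 4.24 without both libraries that stood apart). The metallothionein genes Mt1 and Mt2 rose by 4.69 ± 0.31 (adjusted p = 2.4e-07) and 4.18 ± 0.27 (adjusted p = 2.0e-07), with 4.01 and 3.50 under length-bin scaling. Dusp1 fell by 0.82 ± 0.13 (adjusted p = 0.0002) and Ddit4 by 0.60 ± 0.14 (adjusted p = 0.0024; -1.31 under length-bin scaling). In the first step 4 rose and 4 fell, near the 34% and 30.7% of all genes, with Zbtb16 lower by 3.82 ± 0.25 (adjusted p = 3.1e-07).

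The estrogen-related receptor targets, genes of the citric acid cycle and respiration in a list that also holds Esrra itself, had 6 of 7 higher for P60 against E14.5 (median 1.42), beside 36.7% of all genes higher, and Cs at -0.17 ± 0.16 (adjusted p = 0.36). Idh3a rose by 2.30 ± 0.14 (adjusted p = 1.1e-07) and Cycs by 1.45 ± 0.21 (adjusted p = 7.4e-05). In the first step 2 of the 7 rose, Esrra itself among them, and 3 fell, beside 34% of all genes higher and 30.7% lower. Cycs was lower by 0.94 ± 0.20 (adjusted p = 0.0020).

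Of 7 LXR targets, 4 rose and 2 fell for P60 against E14.5 (median 1.02), beside 36.7% of all genes higher and 39.4% lower. Apoe, which carries lipid between brain cells, averaged 67.0, 123.1 and 3534 CPM over the stages and rose by 4.84 ± 0.29 (adjusted p = 1.3e-07), and the desaturase gene Scd1 fell by 2.70 ± 0.15 (adjusted p = 1.0e-07) and rose by 3.51 ± 0.16 (adjusted p = 1.8e-08). Abca1, a cholesterol exporter, rose by 2.48 ± 0.35 (adjusted p = 9.0e-05) and fell by 2.26 ± 0.34 (adjusted p = 0.00012), or by 1.37 under length-bin scaling. Of 9 PPAR targets, 5 rose and 2 fell in the first step (34% and 30.7% of all genes), led by the fatty acid oxidation gene Cpt1a at 4.93 ± 0.31 (adjusted p = 2.2e-07), and 5 rose and 3 fell in the second (36.7% and 39.4%), with Pdk4 higher by 2.15 ± 0.24 (adjusted p = 1.1e-05).

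**Figure D5:**
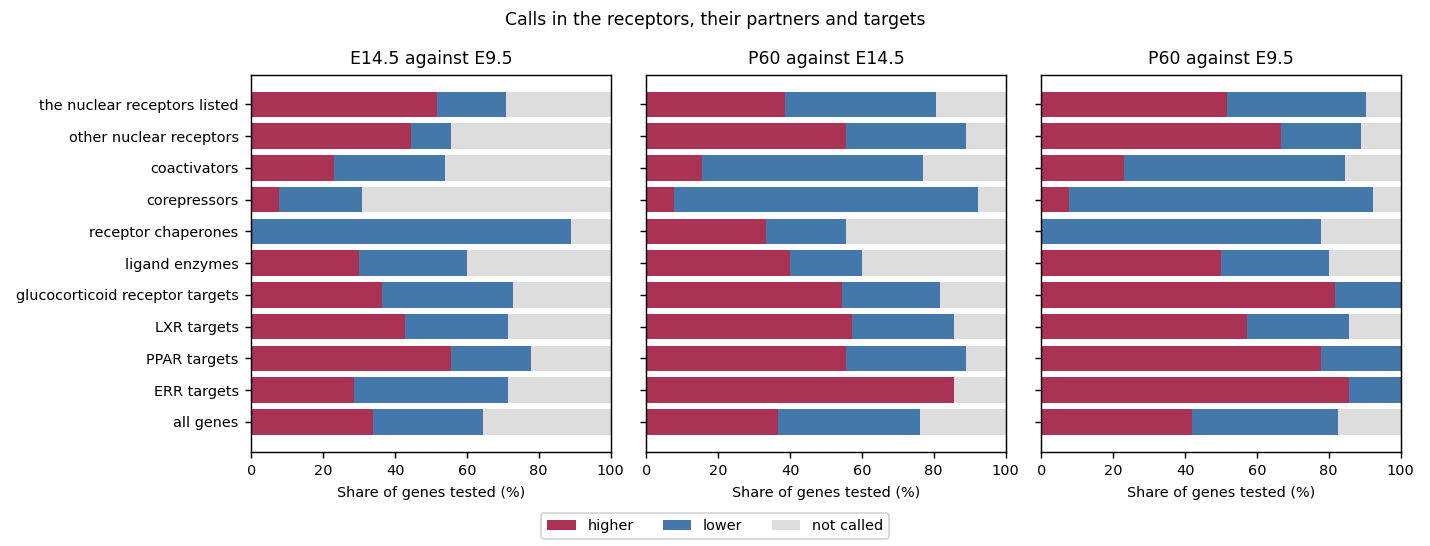
Share of the genes tested in each list that were called higher, lower or not called, in the first step, the second step and the whole interval; the bottom bar is all 17971 genes. Corepressors (11 of 13) and coactivators (8 of 13) are mostly lower for P60 against E14.5, and chaperones (8 of 9) for E14.5 against E9.5.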

How the data were processed

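The authors deposited raw read counts per gene for 9 libraries, which were made from small amounts of total RNA with a kit that amplifies full-length cDNA, per the labels' protocols. The submitters' processing notes name Trimmomatic 0.36, STAR 2.5.2b and the mm10 build; the counting program, annotation and strand setting are not given in the sources used here. Library totals ran from 30481975 to 35619093 counts. Of 45706 identifiers, 45143 matched GENCODE M21, the source of symbols and exon lengths.

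All 9 libraries entered 1 edgeR 4.0.16 fit (R 4.3.3; TMM, filterByExpr, robust quasi-likelihood, stage as the only factor), with 3 two-sided contrasts and Benjamini-Hochberg adjustment over 17971 genes. A standard error is the size of the fitted log2 fold change divided by the root of its F statistic. The common dispersion corresponds to a biological coefficient of variation of 19.9%. The script was tested on simulated data. Pair ratios used a pseudocount of 1 CPM. Alternatives were other scalings, filters, DESeq2 1.42.0, 2 stages only, a replicate block, each library left out, and, chosen after seeing the data, scaling within 10 bins of exon length and leaving out 2 libraries.

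The members and lists were chosen with earlier results of these data known, so counts over them are descriptions. Library values were given for receptors called and changed at least 4-fold in a consecutive step. From each list the rule took up to 3 called rises and falls per step, among genes averaging 1 CPM or more in the higher of both stages; a selection of these is named, and genes named outside it were chosen after their values were seen. For 1 listed coactivator no identifier matched. Same-numbered E9.5 and E14.5 libraries deviated together (correlations of 0.549, 0.328 and 0.393). However, 2 of their differently numbered pairs had similar values (0.363 and 0.394), and the labels state no pairing. The main fit did not pair libraries, and the replicate block was run only as an alternative. With P60 the correlations ran from -0.348 to 0.498, and the numbers do not pair those libraries. No count column was left unused.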

Additional observations from a re-analysis of the deposited data

How the results depend on the processing

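The number of receptors called stayed within 1.5 times of the reported one under every alternative run. Among 93 receptor comparisons, 69 kept their direction and their side of the threshold under all alternatives, and 24 did not under at least 1. No such count over all genes is given here, so receptors are not ranked against other genes in this. The lists of further receptors, partners and targets, which include Esrra, had 87 genes tested. For E14.5 against E9.5, 54 of these were called, beside 64.6% of all genes. Of the 87 tested, 35 were called and differed at least 2-fold, as did 43.5% of all genes tested. With the replicate number as a block, 23 receptors were called in the first step, 26 in the second and 28 over the whole interval. Without it these were 22, 25 and 28. Of all genes, 67.4%, 78% and 83.9% were called with the block. Among receptors the block changed the calls given with Pparg, Nr2c2, Nr2f1 and Nr4a2, and no other receptor call.

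The values that changed sign had not been called. For P60 against E14.5, Rxrb was -0.06 with library totals and -0.07 with length-bin scaling, Rxrg -0.08 and Nr2f6 -0.17 with length-bin scaling, and Nr4a3 -0.01 with library totals and 0.00 without E14.5 replicate 3 (0.25 without E14.5 replicate 2). For E14.5 against E9.5, Nr1h2 was 0.08 with library totals, 0.05 with no filter and 0.01 without E14.5 replicate 2 or 3 or P60 replicate 1 or 3, and -0.03 without E14.5 replicate 1. Nr1d2 was 0.04 with library totals, 0.01 with no filter and 0.01 to 0.02 without E9.5 replicate 2 or 3 or E14.5 replicate 3, and -0.16 without E9.5 replicate 1. For P60 against E9.5, Nr2c2 was 0.28 with length-bin scaling. The cause was not tested.

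For P60 against E14.5, upper-quartile scaling moved the median of all genes by 0.16 and library totals by -0.136 (log2), and for P60 against E9.5 upper-quartile scaling moved it by 0.152. Receptors called higher and lower for P60 against E14.5 were 13 and 12 with upper quartile and 10 and 15 with library totals. Of all 17971 genes, 7248 and 6496 were called higher and lower with upper quartile, and 6089 and 7585 with library totals. Depth limits Esr2, Esr1, Pparg, Ppara and Nr0b1, with under 30 reads in each embryonic library. It also limits Vdr, with 4 to 7 reads a library at E14.5 and 4 to 19 at P60. Nr0b1 had 3 to 8 reads a library at P60.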

Other observations

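E9.5 replicate 1 differed from the other E9.5 libraries in steroid synthesis genes as well as in muscle transcripts. Star had 51.2 CPM in replicate 1, with 5.17 and 5.46 CPM in replicates 2 and 3, and the muscle gene Actc1 had 129.6 CPM, with 2.95 and 2.91 CPM in the others. The summed level of the 32 receptors was 1055 CPM there, between the other libraries' 1048 and 1057 CPM, but single receptors deviated from the mean of the other E9.5 libraries, Nr2c2 by -0.73 and Esrrb by 0.50 on the log2(CPM + 1) scale. Choroid plexus transcripts varied within stages, with Ttr at 674.3, 412.8 and 394.9 CPM at E14.5 and 1943, 3636 and 4557 CPM at P60. These values are given without a test.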
